A study of Rattus norvegicus with 9 samples.

Results

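The brains of rats that had been given astaxanthin before a stroke were compared with the brains of sham-operated rats, to ask what part of the injury response was present after the pretreatment. Astaxanthin is a red carotenoid with antioxidant activity. The comparison used 6 of the 9 libraries of the series and every gene of its table, and 17770 of 22888 genes had enough reads to be tested. All rats were male Sprague-Dawley rats. The 3 astaxanthin libraries (astaxanthin 1, 2 and 3) followed middle cerebral artery occlusion on a single side, preceded by 7 days of astaxanthin by gavage at 45 mg/kg, a medium dose by its label. Model libraries (model 1, 3 and 4), given beside them where they help to place a value, came from rats with the occlusion and no astaxanthin in their labels. The 3 sham libraries (sham 1, 3 and 5) came from the sham operation. Tissue was taken 1 day after the occlusion. No region or side of the brain is given, and the labels do not say whether each library came from a separate animal, so the p-values measure only the spread between these libraries.

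Occlusion of the middle cerebral artery starves part of the cortex and striatum of blood. Dying cells release signals that Toll-like and interleukin-1 receptors read, and glia and vessel walls then secrete chemokines and cytokines that draw in monocytes and neutrophils. Over the first day astrocytes become reactive, microglia lose the genes of their resting state, and proteases and their inhibitors remodel the matrix. Astaxanthin has been studied as an agent against oxidative injury, through the transcription factor Nrf2, and the study's title names apoptosis and the Toll-like receptor pathway.

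Values are normalized reads, the reads of a library scaled by the authors so that libraries can be compared. A difference is the mean of log2(value + 1) in the astaxanthin libraries minus that in the sham libraries, given with its standard error (SE), and the test was limma with Benjamini-Hochberg adjustment over all genes tested. A gene passed, or was called, at an adjusted p under 0.05. In bulk tissue, fewer cells of a type and less RNA per cell cannot be told apart.

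Libraries held 57205011 to 76311125 reads with astaxanthin, 60640476 to 70725032 in the model group and 52268061 to 62148215 in sham. The labelled tissue was checked on Thy1 of neurons, Gfap of astrocytes and P2ry12 of microglia, which had reads in every library (values below). Astaxanthin 1 and model 3 stood apart from the other libraries of their groups. In a fit that weighted each library by its closeness to its group, they had weights of 0.235 and 0.216, against 1.02 to 2.75 in the others. The 29 cerebellar neuron genes lay at a mean of 5.43 log2 units above the sham mean in astaxanthin 1, against 0.364 and -0.0905 in astaxanthin 2 and 3. Gabra6, which granule cells of the cerebellum use for a GABA receptor, had 44128, 256 and 20.4 normalized reads in astaxanthin 1, 2 and 3, against 0, 24.7 and 16.6 in sham 1, 3 and 5. Choroid plexus genes were high in astaxanthin 1 (3.22 log2 units) and also in sham 5 (2.79). Striatal genes in sham 5 (-1.41) lay as low as in the astaxanthin libraries (-1.64, -1.57 and -1.46) and apart from sham 1 and 3 (0.62 and 0.792). What these differences in tissue content contribute to the comparison was not tested, so values without astaxanthin 1 are given where they matter.

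Altogether 49 of 17770 genes passed the threshold (0.276%), 42 higher (0.236%) and 7 lower (0.0394%) with astaxanthin. In all 49 the 3 astaxanthin libraries lay outside the range of the 3 sham libraries, above it in the 42 and below it in the 7. Of all genes tested, 13% lay wholly above and 11.4% wholly below the sham range. An unadjusted limma p under 0.05 was reached by 2192 of the 17770. The 42 that rose had differences of 1.06 to 11.9 log2 units with a median of 4.86, and 16 of them had 0 reads in every sham library. Against the model group, 0 genes passed in the astaxanthin libraries with limma, while 1579 had an unadjusted p under 0.05; model against sham gave 848 of 17770 genes (4.77%), 613 higher (3.45%) and 235 lower (1.32%). The comparisons share libraries, so their counts are given side by side only.

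The number of calls depended on the libraries and on the tool. Leaving out astaxanthin 1 raised it to 149 of 17633 genes (0.845%), 129 higher (0.732%) and 20 lower (0.113%), with 46 of the 49 among them, and leaving out model 3 raised it to 111, with all 49 among them. It fell to 7 and 2 on leaving out astaxanthin 2 or astaxanthin 3, and to 1, 5 and 12 on leaving out sham 1, sham 3 or sham 5. On leaving out model 1 or model 4 it was 12 and 17. On the whole reads recovered from the deposited values, DESeq2 called 781 genes (4.65%), 516 higher (3.07%) and 265 lower (1.58%), the 49 included, and edgeR called 0, with 2267 at an unadjusted p under 0.05 and a smallest adjusted p of 0.063. Ccl2 alone kept its limma call in each of the 9 fits that left out 1 library, and Ccl7 kept it in 8. Among the 42 genes that rose, astaxanthin 1 was the lowest of the 3 astaxanthin libraries in 34, against 38.7% of all genes tested.

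**Figure D1:**
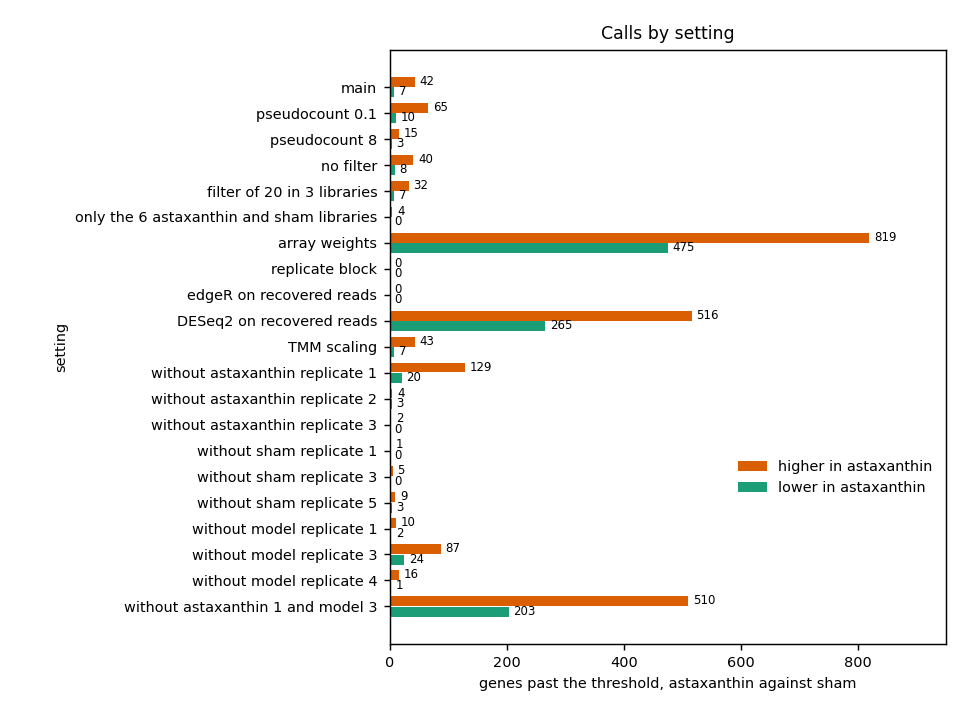
Number of genes past the threshold, astaxanthin against sham, under each way of processing the data, in bars from 0 for genes higher and genes lower with astaxanthin. The counts run from 0 with edgeR and with a replicate block to 1294 with array weights (7.28%), 819 higher (4.61%) and 475 lower (2.67%).

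**Figure D2:**
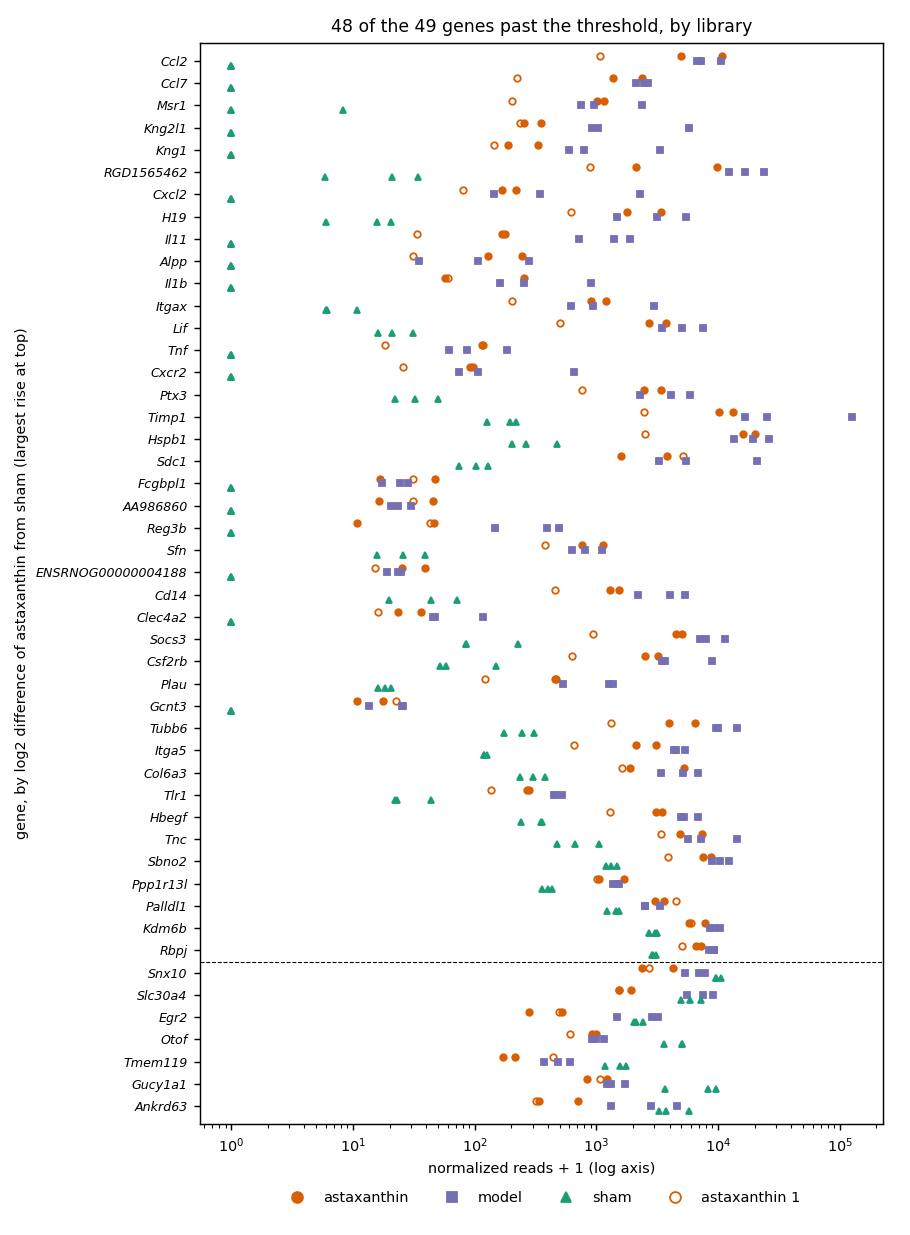
Normalized reads plus 1, on a log axis, of 48 of the 49 genes past the threshold in each of the 9 libraries, ordered by their difference between astaxanthin and sham. Genes above the dashed line rose with astaxanthin and the 7 below it fell; open circles mark astaxanthin 1, which lies left of astaxanthin 2 and 3 in 33 of the 41 plotted genes that rose.

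Chemokines that attract monocytes and neutrophils and several injury cytokines were at or near 0 in sham brain and had reads in all 3 astaxanthin libraries. The chemokine genes Ccl7 and Cxcl2 are shown with the start of their gene, together with both kininogen genes, because they were at 0 reads in every sham library and rose together. Each sequence runs from 250 bases before the RefSeq start site to 50 bases after it, 5′ to 3′ on the strand of the gene, in the GRCr8 assembly of RefSeq. Capitals mark matches, on either strand, to the NF-kappaB site, to the AP-1 motif TGANTCA, to the STAT motif TTCNNNGAA and to the TATA box TATAAA.
Ccl7 (chr10:67513845-67514144, + strand): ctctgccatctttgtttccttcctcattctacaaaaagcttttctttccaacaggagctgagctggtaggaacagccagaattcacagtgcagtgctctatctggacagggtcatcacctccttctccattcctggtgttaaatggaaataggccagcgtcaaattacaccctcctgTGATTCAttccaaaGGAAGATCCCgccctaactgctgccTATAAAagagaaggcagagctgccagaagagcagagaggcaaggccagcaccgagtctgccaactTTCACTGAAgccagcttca
Cxcl2 (chr14:17467206-17467505, - strand): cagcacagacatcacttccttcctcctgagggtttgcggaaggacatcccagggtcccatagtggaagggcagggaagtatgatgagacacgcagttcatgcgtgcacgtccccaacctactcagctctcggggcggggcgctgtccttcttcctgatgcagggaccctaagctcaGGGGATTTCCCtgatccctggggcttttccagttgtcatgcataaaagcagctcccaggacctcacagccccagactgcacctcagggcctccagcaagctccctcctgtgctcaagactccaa
Kng1 (chr11:91340099-91340398, - strand): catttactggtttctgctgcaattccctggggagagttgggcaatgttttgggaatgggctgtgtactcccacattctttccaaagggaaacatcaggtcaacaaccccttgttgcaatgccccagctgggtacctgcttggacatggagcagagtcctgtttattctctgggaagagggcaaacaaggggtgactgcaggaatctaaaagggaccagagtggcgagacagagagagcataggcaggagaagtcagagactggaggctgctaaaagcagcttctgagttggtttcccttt
Kng2l1 (chr11:91483169-91483468, + strand): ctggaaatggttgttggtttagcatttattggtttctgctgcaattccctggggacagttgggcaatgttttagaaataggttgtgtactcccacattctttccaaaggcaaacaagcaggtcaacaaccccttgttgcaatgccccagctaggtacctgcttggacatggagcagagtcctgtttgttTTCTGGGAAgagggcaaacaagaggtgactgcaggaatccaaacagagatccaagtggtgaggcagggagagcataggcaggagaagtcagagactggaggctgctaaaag

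The Ccl7 window held 1 match to each of the 4 motifs, with the NF-kappaB match starting at -59 and the TATA box at -34 from the start site. In Cxcl2, 2 overlapping NF-kappaB matches began at -74 and -73. Kng1 held no match, and Kng2l1 held a STAT match at -61. The windows of both kininogen genes were identical in 258 of 325 aligned columns (79.4%). Of the genes that rose, 33 had a window in the table. An NF-kappaB site was found in 7 of these (21.2%, against 9.81% of 12401 genes tested with a window), namely Ptx3, Sdc1, Itga5, Ccl7, Socs3, Cxcl2 and Tubb6. The AP-1 motif was in 4 (12.1% against 5.34%), the STAT motif in 6 (18.2% against 6.81%), the TATA box in 6 (18.2% against 8.01%) and the antioxidant response element TGACNNNGC in 4 (12.1% against 14.3%). Among 6 genes that fell and had a window, the STAT motif was in 0 and each of the others in 1 (16.7%). A match describes the letters of the window and does not show binding, and no test of these shares was made.

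Ccl2 and Ccl7 are neighbouring genes for chemokines that attract monocytes. Ccl2 (chromosome 10, 67005424 to 67007226, as are all gene positions here in the coordinates of the deposited tables) had 1065, 5011 and 10803 normalized reads in astaxanthin 1, 2 and 3 and 0 in every sham library. It was at least 1598-fold higher by the mean, with a count of 0 taken as up to 3 reads per library, and its difference was 11.92 ± 0.71 log2 units (SE, limma adjusted p = 0.00128). Astaxanthin 1 was the lowest of its group and still far above all of sham. Ccl7 (chromosome 10, 67016446 to 67018303) had 220.2, 1379 and 2359 normalized reads in astaxanthin 1, 2 and 3 and 0 in every sham library, which made it at least 375-fold higher, with a limma adjusted p of 0.00542. Its libraries stood in the same order as those of Ccl2. Cxcl2 (chromosome 14, 17181062 to 17183075), which attracts neutrophils, had 79.2, 216 and 168 normalized reads in the astaxanthin libraries and 0 in every sham library, at least 43.9-fold higher (limma adjusted p = 0.0299).

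Of 33 chemokines and chemokine receptors tested, 4 rose and 0 fell, the fourth being the neutrophil receptor Cxcr2. The list had a median difference of 1.12 log2 units (1.97 without astaxanthin 1) against 0.0384 over all genes tested. Above every sham library lay 14 members and below it 3, against 13% and 11.4% of all genes tested, of which 0.236% were called higher. Ccl3, a chemokine of macrophages and microglia, was just outside the threshold (difference 7.45 ± 1.18 SE, limma adjusted p = 0.0557) and passed without astaxanthin 1 (limma adjusted p = 0.0167).

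Cytokines of the interleukin-6 family were the next group of ligands. Il11 (chromosome 1, 69068137 to 69076129) had 32.5, 176 and 167 normalized reads in astaxanthin 1, 2 and 3 and 0 in every sham library, which made it at least 35.5-fold higher, with a limma adjusted p of 0.0159. Lif, the leukemia inhibitory factor, which drives astrocytes toward the reactive state, had 499, 2734 and 3766 normalized reads with astaxanthin, against 15, 19.8 and 30 in sham 1, 3 and 5. Its difference was 6.31 ± 0.70 (SE, limma adjusted p = 0.0204). Neither gene overlapped between the groups, and astaxanthin 1 was the lowest astaxanthin library for both. Il6 itself did not pass (difference 6.57 ± 1.16 SE, limma adjusted p = 0.0848). It stood at 125, 253 and 357 normalized reads in astaxanthin libraries, against 0, 0 and 12.4 in sham libraries. Socs3, the feedback inhibitor of this pathway, rose, with 940.3, 5099 and 4481 normalized reads in astaxanthin libraries, against 228, 84 and 83.8 in sham libraries (difference 4.56 ± 0.65 SE, limma adjusted p = 0.0409). Of 19 members of the family and its signalling chain, these 3 rose and 0 fell, and 10 lay above every sham library. The shares of all genes tested were 0.236% called higher and 13% above every sham library.

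Interleukin-1 and tumour necrosis factor, the classic early cytokines of injured brain, were also among the calls. Il1b had 59.6, 254 and 55.6 normalized reads in astaxanthin 1, 2 and 3 and 0 in every sham library, at least 35-fold higher (limma adjusted p = 0.0273). Tnf had 17.4, 117 and 114 in the astaxanthin libraries and 0 in sham, at least 23.5-fold higher (limma adjusted p = 0.0356). Each was the single called member of its list, 1 of 18 for interleukin-1 and the inflammasome and 1 of 22 for tumour necrosis factor and necroptosis, against 0.236% of all genes tested called higher. Both genes were low in number of reads, and astaxanthin 1 and 3 held about the same level of Il1b while astaxanthin 2 was higher.

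Kininogens are the precursors of bradykinin, a peptide that widens vessels and makes them leak. Kng1 (chromosome 11, 77812752 to 77835555) had 143, 186 and 329 normalized reads in astaxanthin 1, 2 and 3 and 0 in every sham library, at least 62.3-fold higher (limma adjusted p = 0.00701). Kng2l1 (chromosome 11, 77909612 to 78002971), a near copy of it, had 233, 255 and 352 and 0, at least 79.6-fold higher (limma adjusted p = 0.00682). The astaxanthin libraries lay close together for both genes, closer than for the chemokines. Since the copies are much alike, the authors' counting may have divided reads between them. Both genes kept their call in 7 of the 9 fits that left out 1 library. Bdkrb2, the constitutive bradykinin receptor, overlapped between the groups (difference 0.74 ± 0.76 SE, limma adjusted p = 0.718).

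Receptors and surface molecules of phagocytes formed a further group. Msr1, a scavenger receptor of macrophages, had 204, 1014 and 1167 normalized reads in the astaxanthin libraries, against 0, 0 and 7.25 in sham 1, 3 and 5 (difference 8.27 ± 0.99 SE, limma adjusted p = 0.0273). Its sham mean lay under the level of 3 reads, so the size of the difference rests on the pseudocount. Itgax, an integrin subunit of dendritic cells and activated microglia, had 204, 1200 and 900.5 normalized reads with astaxanthin, against 5, 9.88 and 5.18 in sham (difference 6.36 ± 0.78 SE, limma adjusted p = 0.0273). The groups were far apart in both genes. Cxcr2 had 24.9, 95.4 and 90.8 normalized reads with astaxanthin and 0 in sham, at least 20-fold higher, and Clec4a2, a lectin receptor of myeloid cells, had 15.2, 22.4 and 35.2 and 0, at least 6.88-fold higher (limma adjusted p = 0.0475 and 0.0345). Csf2rb, the shared receptor subunit for interleukin-3 and granulocyte-macrophage factor, had 632, 3229 and 2515 normalized reads with astaxanthin, against 150.1, 50.6 and 56.9 in sham (limma adjusted p = 0.0494).

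Some markers of blood-borne cells passed. Of all genes tested, 0.236% were called higher, 13% lay above every sham library and DESeq2 called 4.65% in either direction. Phagocyte and macrophage genes had 2 of 32 called higher (DESeq2 called 7 of 29 in either direction), with 16 above and 0 below every sham library. They lay at 1.2, 2 and 1.71 log2 units from the sham mean in astaxanthin 1, 2 and 3. Their summed reads overlapped, at 184866 to 254181 with astaxanthin, against 155196 to 277078 in sham. Neutrophil genes had 1 of 19 called higher (Cxcr2), with 10 above every sham library, and DESeq2 called 7 of 16 in either direction. Their summed reads ran from 1586 to 7764 with astaxanthin, against 695.5 to 884.4 in sham. Lymphocyte genes had 0 of 19 called with limma, 1 at an unadjusted p under 0.05 and 1 called with DESeq2, and summed to 584.6 to 1089 with astaxanthin, against 405.3 to 592.2 in sham. Erythrocyte genes had 0 of 9 called with limma or at an unadjusted p under 0.05, and summed to 21447 to 27314 with astaxanthin, against 18087 to 30288 in sham. How far entering cells, resident cells or blood left in the tissue carried the called genes was not tested.

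Toll-like receptor signalling, named in the study's title, had 2 of 51 genes called, both receptors at the cell surface and both higher (against 0.236% of all genes tested). Cd14 (chromosome 18, 28335340 to 28337261), the co-receptor for lipopolysaccharide, had 454, 1286 and 1525 normalized reads in astaxanthin 1, 2 and 3, against 18.8, 43.2 and 70.4 in sham 1, 3 and 5. Its difference was 4.60 ± 0.61 (SE, limma adjusted p = 0.0319). Tlr1 (chromosome 14, 43384932 to 43397125), the partner of Tlr2 for bacterial lipopeptides, had 137, 269.6 and 276 normalized reads with astaxanthin, against 21.3, 22.2 and 42.4 in sham (difference 2.95 ± 0.42 SE, limma adjusted p = 0.0391). All 3 astaxanthin libraries exceeded all 3 sham libraries in both genes. Tlr2 and Tlr4, by contrast, overlapped. Tlr2 had 104, 418 and 290.4 normalized reads in astaxanthin 1, 2 and 3, against 175, 226 and 174 in sham (difference 0.29 ± 0.51 SE, limma adjusted p = 0.847). Tlr4 had 162, 83.7 and 60.5 with astaxanthin, against 73.8, 75.4 and 99.4 in sham (difference 0.19 ± 0.54 SE, limma adjusted p = 0.917), and astaxanthin 1 alone was above every sham library.

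Among the 34 genes further down the pathway, 6 of 17 adaptors and kinases, 4 of 8 transcription factors and 4 of 9 inhibitors lay above every sham library, and 3 genes lay below. None passed with limma, and 12 had an unadjusted p under 0.05, against 2192 of 17770 genes tested. Myd88, the adaptor of most Toll-like receptors, had 630.1, 1803 and 1195 normalized reads with astaxanthin, against 375, 411 and 366 in sham (difference 1.53 ± 0.37 SE, limma adjusted p = 0.174, and 0.0285 without astaxanthin 1). The transcription factor subunits Nfkb1 and Rela had differences of 0.74 ± 0.26 and 0.76 ± 0.30 (SE, limma adjusted p = 0.321 and 0.359), with every astaxanthin library above every sham library. Over the 51 genes the median difference was 0.449, with 20 above and 3 below all of sham (13% and 11.4% of all genes tested). Without astaxanthin 1 the list had 5 genes higher, the inhibitor Nfkbiz and the subunit Relb among them. Tril, an accessory protein of Toll-like receptors, was the 1 gene lower. The same fit called 0.732% of all genes tested higher and 0.113% lower.

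Apoptosis genes, also named there, had 0 of 32 called with limma, 3 at an unadjusted p under 0.05 and 0 called with DESeq2. For all genes tested these were 0.276%, 2192 of 17770 and 4.65%. The list median was 0.0875, with 4 members above and 4 below all of sham, a share that can be set beside the 13% and 11.4% of all genes tested. Bax, which permeabilizes mitochondria, had 1201, 1196 and 1435 normalized reads in astaxanthin libraries, against 1240, 1359 and 1100 in sham libraries (limma adjusted p = 0.949). Its groups overlapped. Bcl2, which restrains Bax, had 633.4, 951.8 and 690.3 normalized reads with astaxanthin, against 1111, 952.5 and 1392 in sham (difference -0.61 ± 0.26 SE, limma adjusted p = 0.387). It did not pass, and its groups were separated by less than 1 normalized read. Without astaxanthin 1, Bid, which links death receptors to mitochondria, was the single call of the list (difference 1.28, limma adjusted p = 0.0419). That fit called 0.845% of all genes tested. But astaxanthin 1 itself lay below every sham library for Bid, at 205 normalized reads against 488 to 607.

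**Figure D3:**
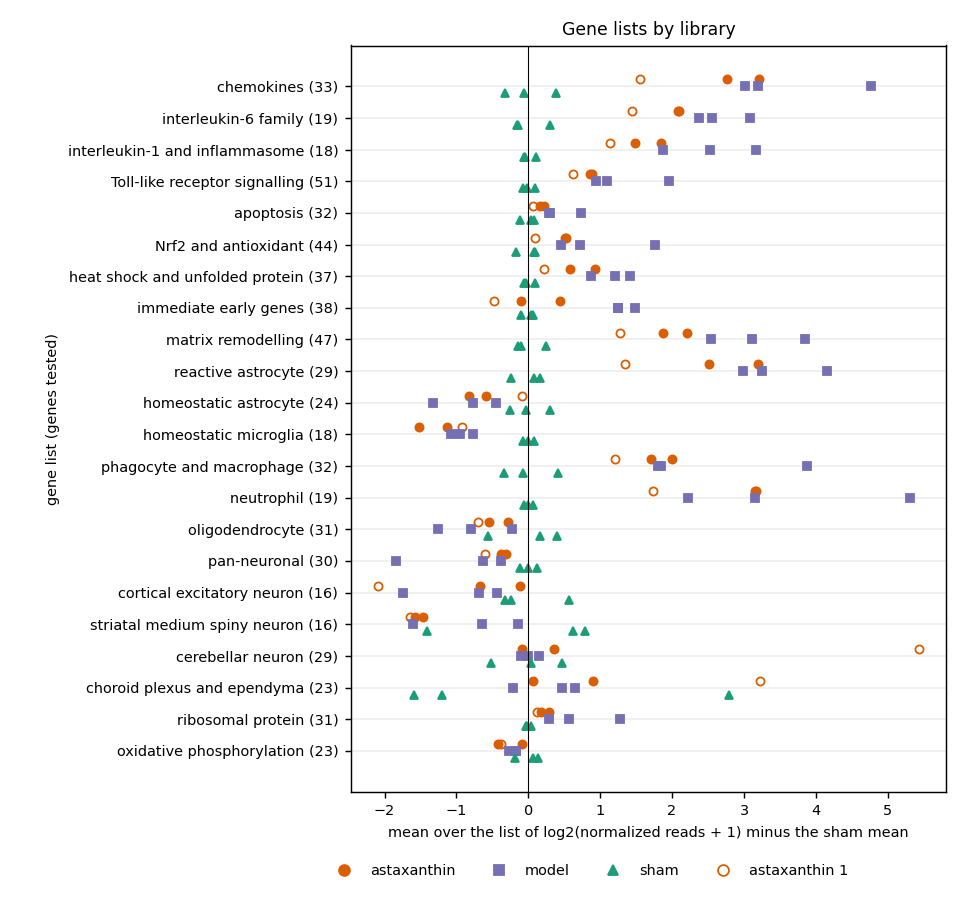
Mean over each gene list of log2(normalized reads + 1) minus the sham mean, in log2 units, for each of the 9 libraries, with the number of genes tested in parentheses. Reactive astrocyte, matrix and chemokine lists lie right of all sham libraries in every astaxanthin library; the open circle of astaxanthin 1 stands far right for cerebellar genes at 5.43.

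Reactive astrocyte genes had 3 of 29 called higher and 0 lower, with a median difference of 2.34 and 21 members above all of sham. Of all genes tested, 0.236% were called higher and 13% lay above all of sham. Ptx3, a secreted pattern-recognition protein, had 766, 3388 and 2466 normalized reads in astaxanthin 1, 2 and 3, against 31.3, 21 and 48.7 in sham 1, 3 and 5. Its difference was 5.82 ± 0.60 (SE, limma adjusted p = 0.0159). Hspb1, a small heat shock protein, had 2527, 16210 and 20062 normalized reads with astaxanthin, against 262, 201 and 474 in sham (difference 5.00 ± 0.73 SE, limma adjusted p = 0.0438). Timp1, an inhibitor of matrix proteases made by reactive astrocytes, had 2472, 13203 and 10170 with astaxanthin, against 125, 194 and 218 in sham (difference 5.30 ± 0.82 SE, limma adjusted p = 0.0494). In all 3 genes astaxanthin 1 was several-fold below astaxanthin 2 and 3 and still above sham. Gfap, the intermediate filament that defines reactive astrocytes, had 45886, 175495 and 197760 normalized reads in astaxanthin libraries, against 22916, 13459 and 39303 in sham libraries (difference 2.35 ± 0.62 SE, limma adjusted p = 0.201). Without astaxanthin 1 it passed (limma adjusted p = 0.042), and the list then had 10 members called higher, with Cd44, Osmr, Stat3, S1pr3, Sphk1 and S100a10 among them. In that fit 0.732% of all genes tested were called higher.

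Matrix remodelling had the most called members of any list, 5 of 47 higher and 0 lower, with a median of 1.43 and 25 above all of sham. Among all genes tested, 0.236% were called higher and 13% lay above all of sham. Plau, the urokinase-type activator of plasminogen, had 122, 468 and 454 normalized reads with astaxanthin, against 15, 17.3 and 19.7 in sham (difference 4.03 ± 0.59 SE, limma adjusted p = 0.0444). Astaxanthin 1 was the lowest of its group and still above all of sham. Itga5, a fibronectin receptor subunit, had 660.5, 2130 and 3121 with astaxanthin, against 119, 126 and 119 in sham (difference 3.75 ± 0.49 SE, limma adjusted p = 0.0299). Tnc, the matrix glycoprotein tenascin-C, had 3428, 4901 and 7364 with astaxanthin, against 666, 477 and 1052 in sham (difference 2.84 ± 0.43 SE, limma adjusted p = 0.0475). Timp1, described above, is also a member. Mmp9, the gelatinase linked to barrier breakdown, was above all of sham without passing (difference 3.35 ± 0.65 SE, limma adjusted p = 0.106, and 0.00498 without astaxanthin 1).

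Outside that list, 3 more genes of the cell surface and matrix rose. Sdc1, a heparan sulfate proteoglycan, had 5198, 1601 and 3823 normalized reads with astaxanthin, against 103, 74.1 and 127 in sham (difference 4.99 ± 0.68 SE, limma adjusted p = 0.0345). It was one of the few genes whose highest astaxanthin library was astaxanthin 1. Col6a3, a chain of collagen VI, had 1623, 1885 and 5249 with astaxanthin, against 236, 380.5 and 299 in sham (limma adjusted p = 0.0444). Hbegf, a growth factor of the epidermal growth factor family, had 1305, 3073 and 3495 with astaxanthin, against 241, 351 and 358 in sham (difference 2.95 ± 0.37 SE, limma adjusted p = 0.0273).

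Several of the remaining rises were in transcription and chromatin regulators with high read numbers and small spread. Sbno2, a corepressor induced by interleukin-10 and interleukin-6 signals, had 3913, 8833 and 7475 normalized reads with astaxanthin, against 1479, 1311 and 1191 in sham (difference 2.27 ± 0.29 SE, limma adjusted p = 0.0298). Kdm6b, a demethylase of histone H3 lysine 27, had 6050, 7774 and 5787 with astaxanthin, against 3040, 2703 and 3161 in sham (difference 1.13 ± 0.17 SE, limma adjusted p = 0.0443). Rbpj, the DNA-binding partner of Notch, had 5066, 7192 and 6558 with astaxanthin, against 2932, 2887 and 3101 in sham (difference 1.06 ± 0.16 SE, limma adjusted p = 0.0475). Kdm6b and Rbpj had the smallest differences of the genes that rose, and their libraries lay close together within each group. Sfn, the 14-3-3 sigma protein of epithelial and stress responses, rose by 4.77 ± 0.50 (SE), with 375, 769 and 1144 normalized reads with astaxanthin, against 25, 14.8 and 38.3 in sham. Tubb6, a tubulin of injured neurons, rose by 3.77 ± 0.52 (SE), and the p53 inhibitor Ppp1r13l and the palladin-like Palldl1 by 1.63 and 1.38 (limma adjusted p = 0.0356, 0.0407 and 0.0444).

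The other rises were of mixed kind. H19, an imprinted long noncoding RNA that is abundant before birth and low in adult tissue, had 619, 3380 and 1794 normalized reads with astaxanthin, against 5, 14.8 and 19.7 in sham (difference 6.96 ± 0.74 SE, limma adjusted p = 0.0159). RGD1565462, known in the table by its locus name only, had 894, 2136 and 9843 with astaxanthin, against 20, 4.94 and 33.1 in sham (limma adjusted p = 0.0273). Its astaxanthin libraries spread over more than 10-fold. Alpp, an alkaline phosphatase, Reg3b, a secreted lectin of the regenerating family, Gcnt3, a glycosyltransferase, and Fcgbpl1, AA986860 and ENSRNOG00000004188 had 0 reads in every sham library. Their astaxanthin means were 133 ± 106, 32.3 ± 19.6, 16 ± 5.96, 30.9 ± 15.5, 30.2 ± 14.6 and 25.6 ± 12.2 normalized reads (SD, n = 3), at least 37.9, 9.18, 4.55, 8.76, 8.58 and 7.28-fold higher. At such levels a few reads decide the value.

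The 7 genes that fell included a marker of resting microglia, an immediate early gene and genes of vesicles and signalling. Ankrd63 (chromosome 3, 105663638 to 105682404), an ankyrin repeat gene, had 319, 339.6 and 706 normalized reads in astaxanthin 1, 2 and 3, against 3718, 5835 and 3267 in sham 1, 3 and 5 (difference -3.28 ± 0.49 SE, limma adjusted p = 0.0444). Gucy1a1, a subunit of the soluble guanylate cyclase that nitric oxide activates, had 1064, 1216 and 846 with astaxanthin, against 8358, 9625 and 3667 in sham (difference -2.69 ± 0.35 SE, limma adjusted p = 0.0299). Its lowest sham library was sham 5, the library with low striatal genes. Sham 5 was also the lowest sham library for Ankrd63, Otof and Slc30a4, but not for Tmem119, Egr2 or Snx10. Tmem119, a marker of resting microglia, had 439, 212 and 171 with astaxanthin, against 1750, 1179 and 1576 in sham (difference -2.55 ± 0.38 SE, limma adjusted p = 0.0444). Otof, otoferlin, a calcium sensor of vesicle release and the one called gene of the cortical list, had 612, 916 and 986 with astaxanthin, against 5098, 5058 and 3602 in sham (difference -2.46 ± 0.23 SE, limma adjusted p = 0.011). It kept its call in 6 of the 9 fits without 1 library, the most of the genes that fell. Egr2, an immediate early transcription factor, had 491, 526 and 276 with astaxanthin, against 2140, 2032 and 2434 in sham (difference -2.40 ± 0.34 SE, limma adjusted p = 0.0407). Slc30a4, a zinc transporter of vesicles, had 1549, 1920 and 1549 with astaxanthin, against 5913, 7301 and 4984 in sham (difference -1.85 ± 0.22 SE, limma adjusted p = 0.0273). Snx10, a sorting nexin of endosomes, had 2687, 4297 and 2369 with astaxanthin, against 9610, 10574 and 9677 in sham (difference -1.72 ± 0.24 SE, limma adjusted p = 0.04). For all 7 genes every astaxanthin library lay below every sham library.

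Homeostatic microglia genes had 1 of 18 called lower (Tmem119) and 0 higher, against 0.0394% and 0.236% of all genes tested. Their median was -0.99, and 13 members lay below all of sham, against 11.4% of all genes tested. The purine receptor P2ry12 had 411, 118 and 312 normalized reads in astaxanthin libraries, against 973, 1041 and 947 in sham libraries (difference -1.99 ± 0.44 SE, limma adjusted p = 0.138), and the orphan receptor Gpr34 had a difference of -2.02 ± 0.37 (SE, limma adjusted p = 0.0912). Neither passed, though neither overlapped. Aif1, which marks microglia at rest and in activation, had 393, 529 and 559.5 with astaxanthin, against 623, 600.4 and 711 in sham (limma adjusted p = 0.676). Without astaxanthin 1, Gpr34 and Siglec5 passed beside Tmem119, in a fit that called 0.113% of all genes tested lower.

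Immediate early genes follow neuronal activity and stress. They had 1 of 38 called lower (Egr2) and 0 higher, against 0.0394% and 0.236% of all genes tested. They lay at -0.477, 0.442 and -0.0996 log2 units from the sham mean in astaxanthin 1, 2 and 3, and at 1.48, 1.25 and 1.25 in model 1, 3 and 4. With astaxanthin 10 members lay above and 9 below all of sham (13% and 11.4% of all genes tested). Their median difference was -0.235, and 0.0744 without astaxanthin 1. Arc, an activity-regulated synaptic gene, had 4992, 3870 and 1992 normalized reads with astaxanthin, against 10418, 14702 and 11156 in sham (difference -1.82 ± 0.45 SE, limma adjusted p = 0.178). Inhba, an activin subunit, stood the other way at 1309, 1215 and 2315 with astaxanthin, against 170.1, 206 and 195 in sham (difference 3.02 ± 0.56 SE, limma adjusted p = 0.0966). Without astaxanthin 1, the transcription factor Myc and the stress gene Gadd45b passed as rises (differences 3.01 and 1.46, limma adjusted p = 0.00155 and 0.0303). Of all genes tested, 0.732% were called higher in that fit.

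Genes of Nrf2 and antioxidant defence, described above as studied with astaxanthin, had 0 of 44 called with limma, against 0.276% of all genes tested. An unadjusted p under 0.05 was held by 11, against 2192 of 17770 genes. DESeq2 called 7 of 43, against 4.65%. The list had 12 above and 10 below all of sham (13% and 11.4% of all genes tested) and a median of 0.0894 (0.166 without astaxanthin 1). Hmox1, the inducible heme oxygenase, had 2488, 8829 and 5922 normalized reads in astaxanthin 1, 2 and 3, against 239, 287 and 341 in sham 1, 3 and 5 (difference 4.14 ± 0.70 SE, limma adjusted p = 0.0684, and 0.0344 without astaxanthin 1). The lowest astaxanthin library lay far above the highest sham library. Nfe2l2, the gene of Nrf2 itself, had 1935, 1931 and 1654 with astaxanthin, against 1168, 1123 and 1536 in sham (difference 0.54 ± 0.27 SE, limma adjusted p = 0.451). Of 21 genes that handle carotenoids and retinoids, 0 were called with limma, 2 had an unadjusted p under 0.05 and 1 was called with DESeq2. The shares of all genes tested are those given for the Nrf2 list.

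Pan-neuronal genes had a median of -0.4 with 9 of 30 below and 0 above all of sham, and ion channels and receptors one of -0.292 with 14 of 54 below and 2 above. Of all genes tested, 11.4% lay below and 13% above all of sham. Thy1, a neuronal surface protein, had 24164, 42502 and 37432 normalized reads with astaxanthin, against 58944, 70351 and 57564 in sham (difference -0.88 ± 0.32 SE, limma adjusted p = 0.333). Grm3, a metabotropic glutamate receptor, came closest to the threshold (difference -1.32 ± 0.22 SE, limma adjusted p = 0.0684). Cortical genes had Otof as their single call among 16, against 0.0394% of all genes tested called lower. Their median was -1.21 (-0.403 without astaxanthin 1), and that of cerebellar genes was 1.31 (-0.43 without it). Striatal genes had a median of -1.33, with sham 5 among the astaxanthin libraries as stated above. Oxidative phosphorylation genes had a median of -0.266 with 14 of 23 below all of sham (against 11.4% of all genes tested) and 0 above. Cytosolic ribosomal protein genes, a list that also follows RNA quality, had a median of 0.191 with 18 of 31 above all of sham (against 13%) and 0 below. Neither list had a gene called with limma or DESeq2, at 0 and 1 genes with an unadjusted p under 0.05. Mitochondrial transcripts took 6.46% to 7.25% of the reads with astaxanthin, against 7.87% to 9.61% in sham. In model 1, 3 and 4 they took 6.66, 10.4 and 7.98%.

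Beside the model libraries, 38 of the 42 genes that rose had a negative difference of astaxanthin from model, and for 17 the unadjusted 95% interval lay under 0. Over all genes tested the median of this difference was -0.00972, and 1579 of 17770 had an unadjusted p under 0.05 in either direction. Astaxanthin 1, with its high cerebellar genes, was the lowest astaxanthin library in 34 of the 42. Differences from model without it are not given here. None of the 49 passed in that comparison after adjustment with limma. Il11 had 32.5, 176 and 167 normalized reads in astaxanthin 1, 2 and 3, against 1901, 1387 and 723 in model 1, 3 and 4, a difference of -3.63 (95% interval -5.24 to -2.03). Reg3b differed by -3.47 (95% interval -5.16 to -1.77), Kng2l1 by -2.68 (95% interval -4.22 to -1.13), Kng1 by -2.50 (95% interval -4.02 to -0.97) and Timp1 by -2.44 (95% interval -4.30 to -0.58). These genes lay lower in the astaxanthin than in the model libraries, by an unadjusted interval only. Model 3 was far above model 1 and 4 for Timp1 (125632 against 25319 and 16593 normalized reads) and Kng2l1 (5826 against 1029 and 923). Ccl2 differed by -1.06 (95% interval -2.69 to 0.57), Hspb1 by -1.02 (95% interval -2.68 to 0.64), Tnf by -0.66 (95% interval -2.54 to 1.21) and Sfn by -0.26 (95% interval -1.40 to 0.87). Levels several-fold lower, equal and higher with astaxanthin were all inside the intervals of Ccl2, Hspb1 and Tnf.

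Among the genes that fell, 2 kinds of pattern appeared. Slc30a4 had 1549, 1920 and 1549 normalized reads in astaxanthin libraries, against 9160, 5617 and 7480 in model libraries, a difference of -2.13 (95% interval -2.64 to -1.62), and 5913, 7301 and 4984 in sham libraries. Egr2 had 491, 526 and 276 with astaxanthin, against 2855, 1486 and 3219 in model, a difference of -2.52 (95% interval -3.30 to -1.74). Ankrd63 and Snx10 differed from model by -2.60 (95% interval -3.71 to -1.49) and -1.14 (95% interval -1.69 to -0.59). In these 4 genes the astaxanthin libraries lay below both other groups. The intervals are unadjusted, and none of the 4 passed against model (limma adjusted p = 0.125, 0.468, 0.548 and 0.548, in the order given). Their calls rest on low values in the same astaxanthin libraries, which favours low values against model as well. Otof had 612, 916 and 986 with astaxanthin, against 998, 1148 and 925 in model, a difference of -0.31 (95% interval -0.85 to 0.22), and Gucy1a1 and Tmem119 differed from model by -0.45 (95% interval -1.25 to 0.36) and -0.93 (95% interval -1.79 to -0.07). These 3 were low in both occluded groups, and model against sham passed for each (limma adjusted p = 0.00422, 0.0176 and 0.0479). It did not pass for the 4 genes above. The interval of Tmem119 against model also lay under 0.

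**Figure D4:**
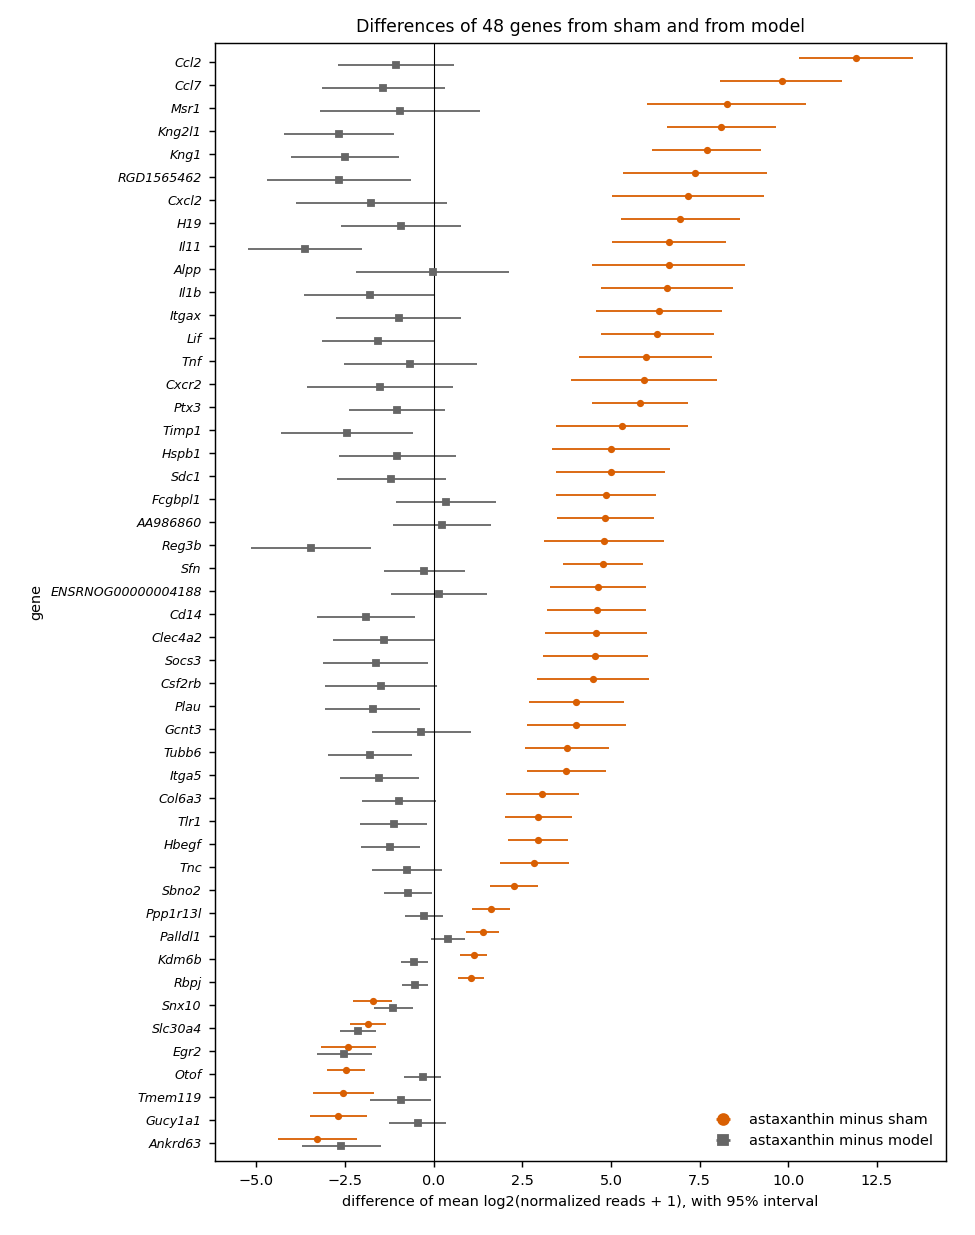
Difference of mean log2(normalized reads + 1), with its unadjusted 95% interval, for 48 of the 49 genes past the threshold. Circles show astaxanthin minus sham and squares astaxanthin minus model; the squares of Slc30a4 (-2.13), Egr2 (-2.52) and Ankrd63 (-2.60) lie near their circles, while that of Otof (-0.31) lies near 0.

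Transcripts were counted apart from genes in a second table of 45893, which was scaled on its own. Of 32824 tested, 67 passed against sham (0.204%), 49 higher and 18 lower, in 64 genes, of which 21 were also called as genes. Against model 17 passed (0.0518%). The share that a transcript took of its gene was tested for 17161 transcripts, and 33 passed against sham (0.192%), in 25 genes, of which 1 (Col6a3) was called as a gene. Against model 12 passed (0.0699%).

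The shares that passed were mostly in genes whose total did not pass. Hadhb codes for a subunit of the mitochondrial trifunctional protein, which oxidizes long-chain fatty acids. Its transcript Hadhb-202 took 99.6, 99.7 and 97% of the gene in astaxanthin 1, 2 and 3, against 0% in every sham library (limma adjusted p = 0.00174), and Hadhb-201 was read in sham alone. Rasgef1a codes for an exchange factor of Ras-like proteins. Rasgef1a-202 took 100% in every astaxanthin library, against 10.1, 17.5 and 24.7% in sham 1, 3 and 5 (limma adjusted p = 0.000158). In both genes the astaxanthin libraries read almost a single transcript. In the glycolytic enzyme gene Eno1, transcript Eno1-201 took 42.6, 41.9 and 41.7% with astaxanthin, against 81.1, 83.1 and 82.1% in sham (limma adjusted p = 0.00805). Tnfrsf1b, a receptor of tumour necrosis factor, was read mainly as Tnfrsf1b-202 with astaxanthin (75.4, 59.4 and 82%), against 0, 0 and 2.54% in sham (limma adjusted p = 0.0271). Cystm1 showed 32.3, 36.3 and 24% of Cystm1-203, against 0% in sham (limma adjusted p = 0.00174). The unnamed gene ENSRNOG00000063679 showed 77.9, 41.8 and 56% of transcript ENSRNOT00000109456 with astaxanthin, against 0% in every sham library (limma adjusted p = 0.00174). Model libraries lay on the same side of sham as the astaxanthin libraries in each of these 6 genes, at 98.7, 99.4 and 100% for Hadhb-202 and 43.9, 48.9 and 42.4% for Eno1-201. In Col6a3, Col6a3-203 took 96.9, 93.1 and 92.8% with astaxanthin, against 0% in sham (limma adjusted p = 0.0369).

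**Figure D5:**
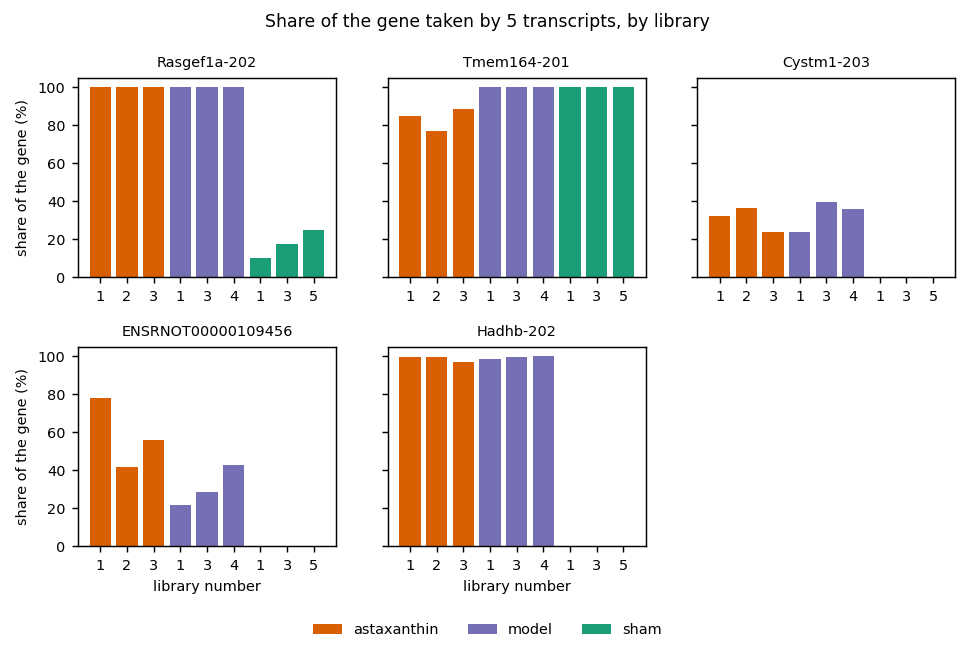
Share of the gene's normalized reads, in percent, taken by 5 of the 6 transcripts with the smallest p for share of their gene, in each of the 9 libraries. Hadhb-202 is at 97% or more in all astaxanthin and model libraries and at 0 in sham, and Tmem164-201 is below 100% in the astaxanthin libraries alone.

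A smaller set of transcripts set astaxanthin apart from both other groups. Zbtb4 codes for a repressor that binds methylated DNA. Its transcript Zbtb4-202 took 77.2, 81.5 and 87.1% of the gene in astaxanthin 1, 2 and 3, against 26.1, 27.8 and 23.6% in model 1, 3 and 4 and 26.7, 23.6 and 25.9% in sham 1, 3 and 5. It passed against sham and against model (limma adjusted p = 0.00615 and 0.00867). Tmem164-201 took 85.2, 77.2 and 88.7% with astaxanthin, against 100% in every model and sham library (limma adjusted p = 0.000417 against sham and 0.00102 against model). Cdc14b-205, of a phosphatase gene, took 0.148, 0 and 0% with astaxanthin, against 29, 31.9 and 23.4% in model and 37.2, 36.1 and 17.4% in sham (limma adjusted p = 0.00429 and 0.00743). Dixdc1-204, of a Wnt pathway gene, had 0 normalized reads in every astaxanthin library, against 1085, 994 and 451 in model and 1046, 210.2 and 482 in sham (limma adjusted p = 0.00274 and 0.00286). Nell2-202, of a secreted neuronal protein, had 6827, 9220 and 14799 normalized reads with astaxanthin and 0 in every model and sham library (limma adjusted p = 0.000142 and 0.000354), as did Sh3glb1-204 with 667, 1422 and 1126 and 0 (limma adjusted p = 0.00102 and 0.00171). For Dixdc1-204, Nell2-202 and Sh3glb1-204 these p-values test the reads of the transcript and not its share. By share, Dixdc1-204 passed against sham and against model (limma adjusted p = 0.0369 and 0.034). Sh3glb1-204 passed by share against sham alone (limma adjusted p = 0.0452, and 0.0746 against model). Nell2-202 was not among the shares that passed. The groups did not overlap in any of these 6 transcripts. The submitters' processing notes name StringTie without its settings, and the part of the authors' assignment of reads to transcripts in such all-or-none values was not tested.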

How the data were processed

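RNA-seq of rat brain gave 3 astaxanthin, 3 model and 3 sham libraries. The submitters' processing notes list STAR, StringTie, FastQC and DESeq2 and the rn7 build, without versions or settings. The deposited gene and transcript values are a normalized signal that behaves as read counts divided by 1 factor per library: 100% of values gave whole reads within a tolerance of 0.01. Strand and the handling of reads shared between copies of a gene are not given in the sources used here.

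Genes reaching 0.5 in 3 or more libraries entered limma 3.58.1 (R 4.3.3, trend and robust) on log2(value + 1), so fold changes of low genes are understated. The fit held all 9 libraries and group alone, with Benjamini-Hochberg adjustment. Transcripts were tested likewise, and shares on a log ratio of a transcript to the rest of its gene. edgeR 4.0.16 and DESeq2 1.42.0 were run on the recovered reads. The gene fits with limma, edgeR and DESeq2 and the fit of shares were tested on simulated data, and the other settings were not. Other alternatives changed the pseudocount, the filter, the scaling, library weights and the libraries included.

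Named genes were the 12 largest rises and falls past the threshold without overlap and with a mean of at least 20, the 3 smallest p of each list described, the genes keeping their call without any 1 library, the 6 transcripts with the smallest p for share, and a set list of injury genes. It was decided to name 48 of the 49 called genes once the count was known; a few genes that these rules name are not reported here, and other transcripts and genes called without astaxanthin 1 were chosen after their values were seen. Members and lists were chosen with earlier results of these data known. Promoters were read from RefSeq (GRCr8), a different build from the deposited tables. Depth limits precision through counting error, which the floor of 3 reads alone covers.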

Additional observations from a re-analysis of the deposited data

How the results depend on the processing

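The 49 genes past the threshold, 42 higher and 7 lower, became 75 and 65 higher with a pseudocount of 0.1, and 18, 15 and 3 with one of 8. They became 1294, 819 and 475 with array weights, 781, 516 and 265 with DESeq2, and 713, 510 and 203 without astaxanthin 1 and model 3 together. Fitting only the 6 astaxanthin and sham libraries gave 4, 4 and 0, and edgeR gave 0, 0 and 0, with 2267 genes at an unadjusted p under 0.05. Leaving out 1 library at a time gave 1 to 149 genes, 1 to 129 higher and 0 to 24 lower.

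Astaxanthin and sham share only 2 replicate numbers. Deviations of same-numbered libraries from their groups had a correlation of -0.0191 for number 1 and -0.089 for number 3. With so few libraries and uneven tissue content, these values cannot tell whether a batch was shared. With a replicate block 0 genes (0 higher, 0 lower), 0 transcripts and 0 shares passed.

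The 67 transcripts became 46 to 130 without 1 library, the most without astaxanthin 1. The 33 shares became 28 to 57, the most without sham 5, and 21 with a mean share of at least 20%. Without astaxanthin 1, list medians moved by more than the SD between the astaxanthin libraries for apoptosis (-0.0185) and lysosome (0.0606). Medians of more variable lists moved within theirs, such as immediate early (-0.235 to 0.0744), cerebellar (1.31 to -0.43), cortical (-1.21 to -0.403), choroid plexus (0.909 to 0.21), chemokine (1.12 to 1.97) and Nrf2 genes (0.0894 to 0.166). The immediate early and cerebellar medians changed sign. Each SD includes astaxanthin 1 itself, so it cannot show that these moves were small. Medians also moved with a pseudocount of 8 for kininogens (2.72), neutrophil (1.98) and lymphocyte genes (0.542). Some differences changed sign. Abcc8, at 0.572 in the main fit, went to -0.041 without astaxanthin 1, with or without model 3 (-0.041 to 1.02 without 1 library). Tlr2 went from 0.292 to -0.193 with the replicate block and -0.128 without astaxanthin 2 (up to 0.870). Tlr4 went from 0.188 to -0.0144 with array weights and -0.203 without astaxanthin 1, with or without model 3 (up to 0.498). Bax went from 0.0507 to -0.0358 without astaxanthin 3 and -0.0286 without sham 5 (up to 0.123). The causes were not tested. Genes with 0 reads in sham have differences that rest on the pseudocount, and differences of low genes were limited by depth.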

Other observations

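Some transcripts set the model libraries apart from the astaxanthin and sham libraries. Fat3 codes for a large cadherin of neurons. Fat3-203 took 66.6, 43.2 and 41.4% of the gene in astaxanthin 1, 2 and 3, against 0% in every model library, and 63.1, 66.3 and 71.5% in sham 1, 3 and 5 (limma adjusted p = 0.00281 against model). Dync1li2, which codes for a light intermediate chain of cytoplasmic dynein, was read as Dync1li2-204 at 48.5, 33.7 and 50.5% with astaxanthin, against 1.17, 1 and 1.59% in model, and 44.9, 27.6 and 47.9% in sham (limma adjusted p = 0.00743 against model). In both genes the astaxanthin and sham ranges overlapped and all model libraries lay lower. Cops5-201, of a signalosome subunit, took 100% in every astaxanthin and sham library, against 91.4, 93.8 and 94.5% in model (limma adjusted p = 0.00102 against model).

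Others separated astaxanthin from sham. Uxs1-208, of an enzyme that makes UDP-xylose, took 20.8, 19.2 and 21.6% with astaxanthin, against 12.7, 22.5 and 14.3% in model and 87.5, 88.2 and 93.6% in sham (limma adjusted p = 0.00429 against sham). Naa50-201, of an acetyltransferase subunit, took 42.5, 35.8 and 39.2% with astaxanthin, against 7.48, 13.5 and 10.3% in model and 7.24, 5.69 and 5.99% in sham (limma adjusted p = 0.0262 against sham and 0.168 against model). These transcripts were chosen after their values were seen.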
